A study of Homo sapiens with 2 samples.

Results

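The chaperonin CCT, also called TRiC, is built from 8 related subunits, and its genes are TCP1, CCT2, CCT3, CCT4, CCT5, CCT6A, CCT7 and CCT8. All 8 genes were described through the cytosines of their exons in RNA bisulfite sequencing (BS-Seq) of 2 human cell lines. A cytosine site was kept where its coverage, the sum of unconverted and converted reads, was at least 10 and where it lay on a same-strand exon of a GENCODE basic transcript. Sites of that coverage on the mitochondrial chromosome were kept as well. In MCF10A, 1959 of 1584002 kept sites lay in the 8 genes, and in MDA-MB-468 1403 of 1271253 did. In all, 2070 sites of the 8 genes were kept in at least 1 line and 1292 in both lines.

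CCT is a cytosolic chaperonin of a pair of stacked rings. Each ring holds every subunit once, in a fixed order, and the chamber opens and closes as the subunits bind and hydrolyze ATP. Actin and tubulin are its best known clients, and the prefoldin complex hands unfolded chains over to it. It belongs to the housekeeping machinery of growing cells, and its subunits are made in similar amounts because each ring needs all of them.

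MCF10A is a nontumorigenic mammary epithelial line and MDA-MB-468 is a breast cancer line, and the comparison asks how m5C differs between them. Total RNA of untreated cells was enriched for poly(A) RNA and treated with bisulfite at 60 degrees for 8 hours, which converts cytosine but not 5-methylcytosine (m5C). The labels name DMEM for both lines, whereas the methods give MCF10A a DMEM/F12 medium with horse serum, EGF, hydrocortisone and insulin and MDA-MB-468 an RPMI medium with FBS, so that line and medium cannot be told apart, and no source used here gives a passage number. Each line is 1 library, so no value has a replicate error and every test compares the reads of 2 libraries and not the cell lines as conditions. A kept site of the 8 genes held a median of 35 reads in MCF10A versus 29 in MDA-MB-468, against a median of 18 over all kept sites in each line. Of the markers of the labelled cells, KRT8, KRT18, KRT19, KRT5 and KRT17 had kept sites in both lines. EPCAM and CDH1 had 175 and 108 kept sites in MDA-MB-468 but none in MCF10A, and KRT14 and TP63 had none in either line. PTPRC and CD3E had none in either line, and COL1A1 had 267 in MDA-MB-468. The nonconversion rate, the share of counts left unconverted over all kept sites, was 1.99% in MCF10A versus 1.81% in MDA-MB-468, and it was the background against which each site was called.

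An m5C site is a kept site whose unconverted reads exceeded this background in a one-sided Fisher's exact test, with a Benjamini-Hochberg adjusted p under 0.05 over all kept sites of the line. By this rule 55 sites of the 8 genes were called in MCF10A, or 2.81% of their kept sites, where 0.96% of all kept sites were called. In MDA-MB-468 25 sites were called, or 1.78%, where 0.84% of all were called. All kept sites include the mitochondrial chromosome, and of all 15203 and 10675 calls, 13450 and 9408 lay at nuclear cytosines. The calls fell in few genes. In MCF10A, CCT6A held 30 of them, CCT5 20, CCT3 3, and TCP1 and CCT7 1 each. In MDA-MB-468, CCT3 held 14 and CCT6A 11. CCT2, CCT4 and CCT8 had no called site in either line. Among protein-coding genes with a kept site, 21.1% had a called site in MCF10A versus 16.9% in MDA-MB-468. Among genes with at least 100 kept sites these shares were 36.3% and 32.6%. All 8 CCT genes reached that number in MCF10A, of which 5 had a called site, and 5 reached it in MDA-MB-468, of which 2 had one. With sites within 10 nt of another m5C site left out, 16 and 5 calls remain.

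The sites that carry these calls are shown here in stretches of 30 nt of the GRCh37 sense strand, read 5′ to 3′ from the reference genome, with every called cytosine in capitals. The first pair holds the only sites called in both lines, and the capitals mark cytosines called in either line. The CCT3 site is chr1:156281851 on the minus strand, in the coding sequence of exon 11, and the CCT6A site is chr7:56126178 on the plus strand, in the coding sequence of exon 7.
CCT3 chr1:156281836-156281865, minus strand: tctcctccggggggCtagcaaagagattct
CCT6A chr7:56126163-56126192, plus strand: aaggaaagtCtgtggCgattCagataaagg
The next 3 are windows of 30 nt on the longest run of called cytosines of CCT3 in MDA-MB-468 and of CCT5 and CCT6A in MCF10A. The runs of CCT3 and CCT6A are longer than their window, and that of CCT5 lies whole within it. The CCT3 window holds the 1 site that differed between the lines, chr1:156290711.
CCT3 chr1:156290696-156290725, minus strand: gCttgCaaCattgCCCtggatgCtgtCaag
CCT5 chr5:10263339-10263368, plus strand: atCCagaCtatgaCCgaagtCCgagCCaga
CCT6A chr7:56127279-56127308, plus strand: CgaCCtaagtCCtgaCtgCttgggaCatgC
The last 3 show the run of highest ratio, in the 3′ UTR of CCT6A in MDA-MB-468, and the single called sites of TCP1 and CCT7 in MCF10A.
CCT6A chr7:56130896-56130925, plus strand: aaggagagaaCaCtggCatCtgttgaaatt
TCP1 chr6:160201541-160201570, minus strand: ggaaggtgaagaaaCttttgaagctgcaat
CCT7 chr2:73476216-73476245, plus strand: ccattggggatgtggCcacccagtactttg
In the windows on the runs of CCT3, CCT5 and CCT6A every cytosine was called, while the windows of TCP1 and CCT7 hold a lone called cytosine. The windows on the runs of CCT5 and CCT6A were placed to hold the most called cytosines, so this follows in part from the choice.

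The CCT3 site at chr1:156281851 had 5 unconverted of 27 reads in MCF10A, a methylation ratio of 18.5% (95% Wilson interval 8.18% to 36.7%, adjusted p = 0.0206 by Fisher's exact test). In MDA-MB-468 it had 4 of 11 reads, a ratio of 36.4% (15.2% to 64.6%, adjusted p = 0.00491 by Fisher's exact test). The CCT6A site at chr7:56126178 had 5 of 15 reads in MCF10A, a ratio of 33.3% (15.2% to 58.3%, adjusted p = 0.0012 by Fisher's exact test). In MDA-MB-468 it had 5 of 24 reads, a ratio of 20.8% (9.24% to 40.5%, adjusted p = 0.0090 by Fisher's exact test). The intervals of the lines overlap at both sites, and neither difference between the libraries passed the two-sided Fisher's exact test (adjusted p = 1 for each). The CCT3 site stood alone, with no other called site within 25 nt in either line. Of the 55 sites called in MCF10A, 50 were kept in MDA-MB-468, and of the 25 called in MDA-MB-468, 21 were kept in MCF10A. A kept site was not always deep enough for a call at the ratio of the other line. At a coverage of 10, a ratio of 40% was needed in each line.

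CCT3 encodes the gamma subunit, and its kept sites had a median coverage of 73 reads in MCF10A, the highest of the 8 genes there, versus 42 in MDA-MB-468, where CCT6A had 43.5. Of its 14 calls in MDA-MB-468, all but the lone site described above formed 1 run, chr1:156290657-156290733 in exon 7, in which 13 of 13 cytosines over 77 nt were called. Along the run the unconverted reads stayed between 5 and 9 while the coverage was 18 to 30, and the pooled ratio was 28.7% (92 of 321 counts). In MCF10A the same 13 cytosines had 4 to 8 unconverted reads at a coverage of 85 to 157, a pooled ratio of 4.26% (73 of 1713 counts), and none was called. The numbers of unconverted reads therefore overlapped between the lines, and the coverages did not. At chr1:156290711 the ratio was 3.27% (5 of 153 reads) in MCF10A and 33.3% (9 of 27 reads) in MDA-MB-468, a difference of 30.1 percentage points (adjusted p = 0.0166, two-sided Fisher's exact test). The adjoining cytosine, chr1:156290710, just missed the threshold with 5 of 156 and 8 of 26 reads (adjusted p = 0.0534 by Fisher's exact test). Both cytosines had a high predicted pairing probability of 0.80 and 0.81. No other copy of the CCT3 transcript with 90% identity over 50 nt was found in the genome. Of the remaining 2 called sites of CCT3, both in MCF10A, chr1:156280916 in exon 12 had 10 of 114 reads, against 4 of 69 in MDA-MB-468, and chr1:156287213 in exon 9 was not kept in MDA-MB-468. Neither falls under the rule for named sites, and both were chosen after their values were seen.

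CCT6A encodes the zeta subunit and had the highest nonconversion rate of the 8 genes in MCF10A. Its 30 calls there all lay in the coding sequence, from exon 1 to exon 10. The longest run, chr7:56127265-56127313 in exon 9, held 12 called cytosines of 12 over 49 nt, with 5 to 9 unconverted reads at a coverage of 11 to 34 (pooled ratio 27.2%, 91 of 334 counts). In MDA-MB-468 the same cytosines had 1 to 3 unconverted reads at a coverage of 10 to 29 (10.9%, 32 of 294 counts). Here the coverages overlapped, and the unconverted reads did not. The site of highest ratio at a coverage of at least 20, chr7:56127304, had 7 of 20 reads in MCF10A versus 3 of 17 in MDA-MB-468, ratios of 35.0% and 17.6%. Runs in exon 7 (chr7:56126158-56126183) and exon 8 (chr7:56126354-56126369) held 4 of 4 and 5 of 5 cytosines called in MCF10A, with pooled ratios of 31.6% and 22.7%, against 10.5% and 2.42% in MDA-MB-468. The calls reached up to the first codons, with 4 of 7 cytosines at chr7:56119565-56119582 in exon 1 and a pooled ratio of 10.4%, against 3.40% in MDA-MB-468.

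In MDA-MB-468 the calls of CCT6A lay mostly in its UTRs. In the 5′ UTR, 6 of 14 cytosines at chr7:56119504-56119540 were called, with 4 to 6 unconverted reads at a coverage of 21 to 54 (pooled ratio 11.4%, 68 of 599 counts). In MCF10A the pooled ratio of these 14 cytosines was higher, 17.0% (40 of 235 counts), but at a coverage of 10 to 24 none of them was called. In the 3′ UTR, 4 of 4 cytosines at chr7:56130906-56130915 were called with 5 or 6 unconverted reads at a coverage of 10 to 15, and a pooled ratio of 44.2% (23 of 52 counts, interval 31.6% to 57.7%). None of these 4 was kept in MCF10A. The remaining called site was chr7:56126178, described above.

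CCT5 encodes the epsilon subunit. All of its 20 calls were in MCF10A and in the coding sequence, and the longest run, chr5:10263341-10263365 in exon 10, held 9 of 9 cytosines over 25 nt. They had 5 to 7 unconverted reads at a coverage of 20 to 29, a pooled ratio of 24.5% (53 of 216 counts). In MDA-MB-468 they had 2 to 4 unconverted reads at a coverage of 32 to 67, a pooled ratio of 7.89% (31 of 393 counts), so neither measure overlapped between the lines. The site of highest ratio at a coverage of at least 20 was chr5:10263360, with 6 of 20 reads (30%) against 4 of 32 (12.5%). Shorter runs lay in exon 4, with 3 of 3 cytosines at chr5:10256188-10256197 and a pooled ratio of 18.8% against 7.25%, and in exon 6, with 5 of 6 kept cytosines at chr5:10258552-10258581 and 21.0%. In exon 6 only 2 cytosines were kept in MDA-MB-468, with 4 of 20 counts unconverted.

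TCP1, the alpha subunit that gave the complex its name, had 1 called site in MCF10A, chr6:160201556 in exon 9, with 6 of 49 reads (12.2%, adjusted p = 0.0445 by Fisher's exact test) against 0 of 14 in MDA-MB-468. CCT7, the eta subunit, had 1 at chr2:73476231 in exon 8, with 9 of 108 reads (8.33%, adjusted p = 0.0359 by Fisher's exact test) against 1 of 35. At the depth of MDA-MB-468, 14 and 35 reads, no difference was detected at either site (two-sided Fisher's exact test, adjusted p = 1 for each). The TCP1 site lies in sequence with a near copy.

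**Figure D1:**
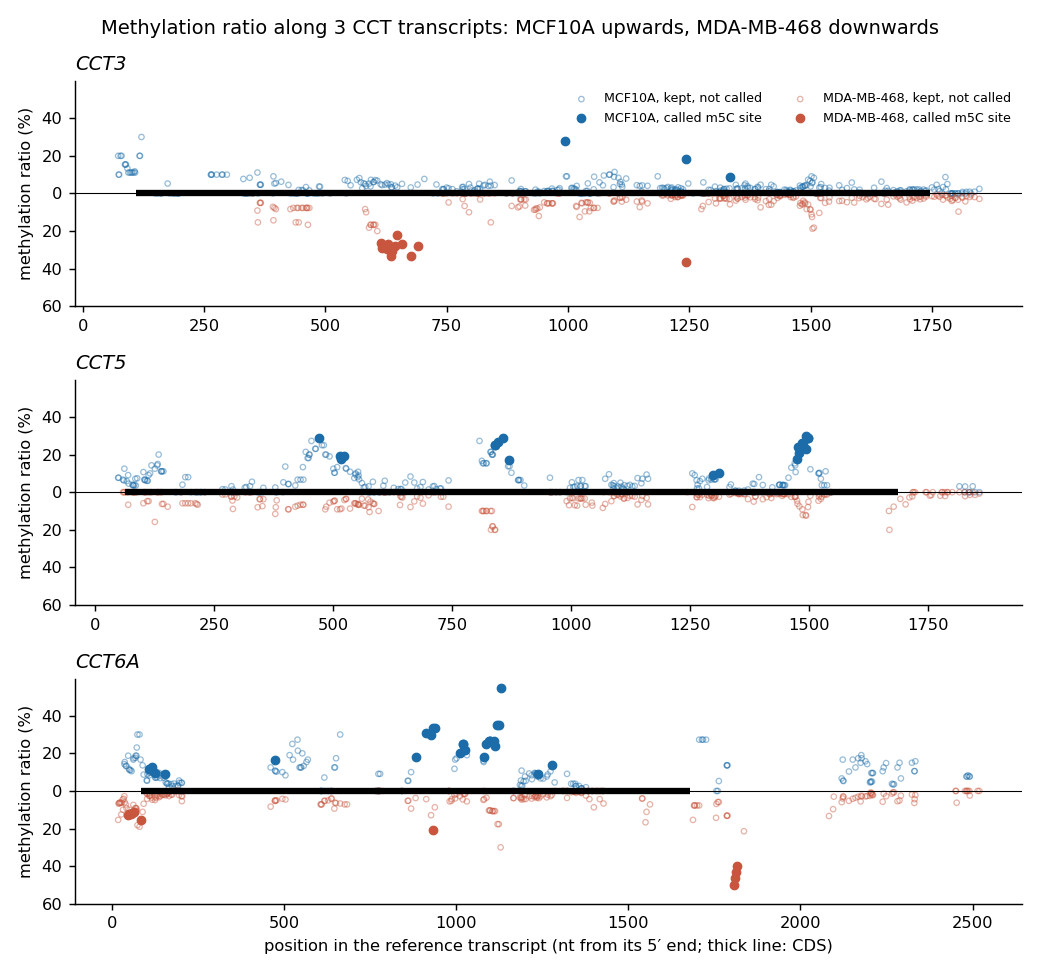
Methylation ratio in percent of each kept cytosine (y axis) against its position in nt in the reference transcript (x axis) of CCT3, CCT5 and CCT6A. MCF10A is plotted upwards and MDA-MB-468 downwards, filled points are called m5C sites, open points are kept sites that were not called, and the thick line is the coding sequence. The called sites sit in a few runs: 13 cytosines of CCT3 in MDA-MB-468, 9 of CCT5 and 12 of CCT6A in MCF10A form the longest.

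The runs account for most of the calls. With called cytosines of a transcript joined where they lay at most 25 nt apart, a distance chosen after the values were seen, 42 of 55 calls in MCF10A lay in 7 runs of at least 3, 2 formed a pair and 11 stood alone. In MDA-MB-468, 23 of 25 lay in 3 runs and 2 stood alone. Within 10 nt of another called site of the same gene were 39 of the calls in MCF10A (70.9%) versus 20 in MDA-MB-468 (80.0%). A read spans several cytosines, so neighbouring sites of a run share reads and are not independent calls. In the plot of reads at each cytosine the unconverted reads differed little from one cytosine of a run to the next.

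**Figure D2:**
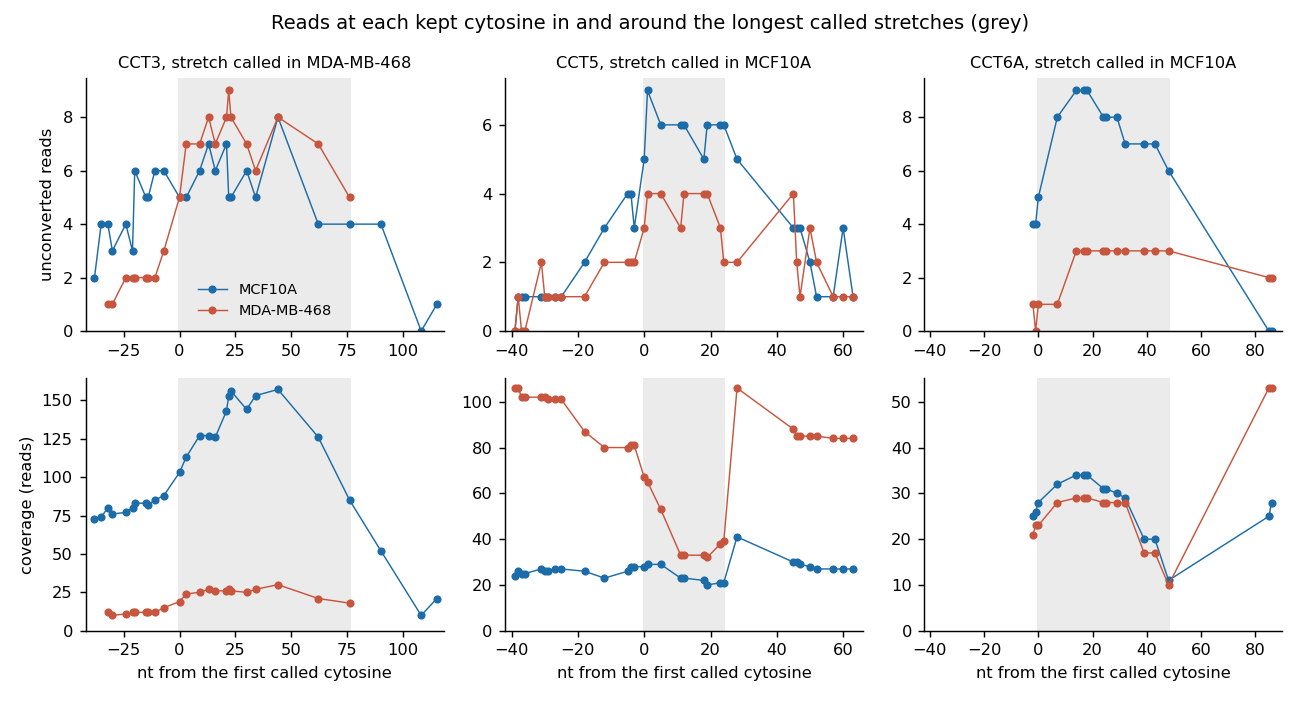
Unconverted reads (upper row) and coverage (lower row) at each kept cytosine within 40 nt of the longest called run (grey) of CCT3, CCT5 and CCT6A, in MCF10A (blue) and MDA-MB-468 (red); the x axis is the distance in nt from the first called cytosine in the transcript. In CCT3 the unconverted reads were 4 to 8 in MCF10A versus 5 to 9 in MDA-MB-468 while the coverage was 85 to 157 and 18 to 30, and in CCT6A the coverages were alike and the unconverted reads 5 to 9 and 1 to 3.

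Called sites were compared with the other kept sites of the 8 genes in features the calling did not use. In MCF10A all 55 calls lay in the coding sequence, 3.43% of 1605 kept sites there, and none among the 230 kept sites of 5′ UTRs or the 124 of 3′ UTRs, where a site in a 5′ UTR of any basic transcript was counted as 5′ UTR. In MDA-MB-468 the calls were 6 of 141 kept sites in 5′ UTRs, 15 of 1117 in the coding sequence and 4 of 145 in 3′ UTRs. All 10 calls in the UTRs were in CCT6A. Within codons, 13 of the calls in MCF10A were at position 1, 18 at position 2 and 24 at position 3, out of 456, 579 and 570 kept sites. In MDA-MB-468 these counts were 3, 6 and 6 out of 327, 386 and 404.

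The bases beside the called cytosines were tallied as trinucleotides with the cytosine in the middle. The 4 contexts with the highest share of called sites over the nuclear transcriptome, CCG, CCC, GCC and GCG, held 62.3% of all nuclear calls in MCF10A versus 62.1% in MDA-MB-468. In the 8 genes they held 12 of 55 calls (21.8%) and 3 of 25 (12%). These contexts made up 21.0% and 22.2% of the kept sites of the 8 genes, against 30.7% and 32.5% of all kept nuclear sites. The predicted pairing probability of the called sites had a median of 0.55 in MCF10A versus 0.41 in MDA-MB-468, against 0.57 and 0.59 for kept sites that were not called. A pairing probability over 0.5 was found for 29 of the 55 and 10 of the 25 called sites. With such sites left out, 26 calls in 3 genes remained in MCF10A versus 15 in 2 genes in MDA-MB-468. These comparisons are descriptions, because most called sites belong to a few runs.

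Near-identical copies of the transcripts elsewhere in the genome covered the 8 genes unevenly. Sequence with at least 90% identity over at least 50 nt was found for 99.7% of the CCT8 transcript, 85.8% of CCT6A, 80.5% of TCP1, 57.1% of CCT5, 9.68% of CCT4 and 2.66% of CCT2, and for none of CCT3 or CCT7. All 20 called sites of CCT5, all 30 of CCT6A and the 1 of TCP1 in MCF10A lay in such sequence, and 9 of the 11 of CCT6A in MDA-MB-468. So did most of their kept sites, called or not, namely all 297 of CCT5, 191 of 212 of CCT6A and 139 of 142 of TCP1 in MCF10A and 220 of 258 of CCT6A in MDA-MB-468. Without these sites 4 calls remained in MCF10A, 3 in CCT3 and 1 in CCT7, and 16 in MDA-MB-468. In CCT8, where every kept site has a copy, none of the 104 and 21 kept sites was called, at median coverages of 20 and 12 reads. Over all kept sites 0.96% and 0.84% were called, so the lack of calls among so few sites says little. How reads of such copies were assigned is not given in the sources used here, so the ratios of CCT5, CCT6A, CCT8 and TCP1 are uncertain to that extent, and the part of the copies in the calls was not tested.

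Over all kept sites, called or not, the nonconversion rate of the 8 genes together was 2.97% of 102215 counts in MCF10A (95% Wilson interval 2.87% to 3.08%) and 2.68% of 76605 counts in MDA-MB-468 (2.56% to 2.79%). These intervals cover counting error only, and they are too narrow because the cytosines of a read are not independent. By gene, the rate in MCF10A was 9.28% in CCT6A, 5.19% in CCT5, 2.91% in CCT8, 2.48% in CCT3, 2.35% in CCT2, 2.20% in CCT4, 1.68% in TCP1 and 1.61% in CCT7. The median of 7270 protein-coding genes with at least 20 kept sites was 1.79% (quartiles 1.34% and 2.50%). CCT6A lay above 99.2% of those genes and CCT5 above 96.1%, CCT8 lay above the upper quartile, and the other 5 lay within the quartiles. In MDA-MB-468 the rate was 5.16% in CCT8, 4.75% in CCT4, 3.25% in CCT6A, 2.85% in CCT3, 2.68% in TCP1, 2.28% in CCT5, 2.20% in CCT2 and 1.55% in CCT7, against a median of 1.45% over 6432 genes (quartiles 1.06% and 1.99%). Of these, only CCT7 lay within the quartiles. The interval of CCT6A in MCF10A lay above that of CCT5 and that of CCT5 above that of CCT8, and from CCT8 downwards each gene overlapped the next in this order. In MDA-MB-468 CCT8 overlapped CCT4, CCT4 lay above CCT6A, and from CCT6A downwards each gene overlapped the next.

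**Figure D3:**
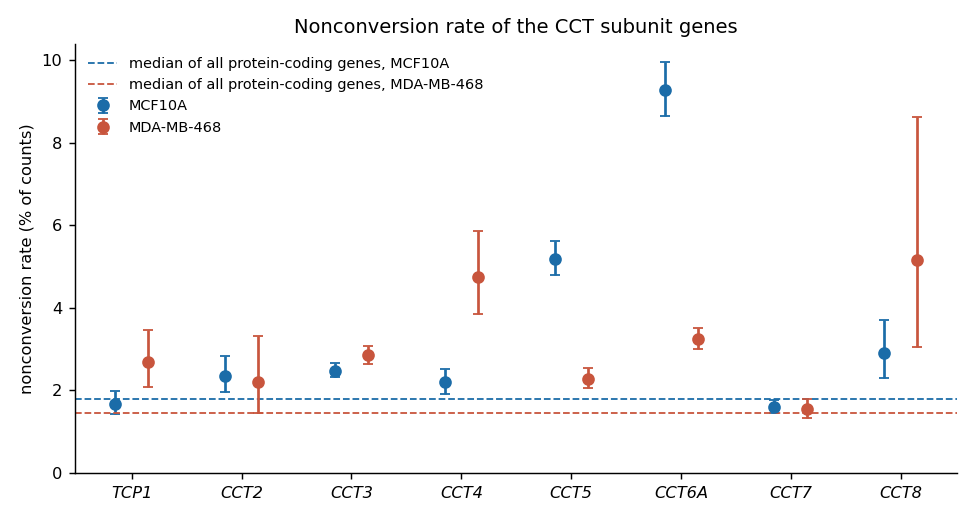
Nonconversion rate in percent of counts (y axis) of each CCT gene (x axis) in MCF10A (blue) and MDA-MB-468 (red), 1 library each; bars are 95% Wilson intervals, which cover counting error only, and dashed lines are the medians of all protein-coding genes with at least 20 kept sites. CCT6A was at 9.28% and 3.25% and CCT5 at 5.19% and 2.28%, whereas CCT4 was at 2.20% and 4.75%.

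The high rate of CCT6A in MCF10A was spread over the transcript. Only 18 of its 212 kept sites (8.49%) had no unconverted read, the lowest share of the 8 genes. The next were CCT3 with 80 of 377 (21.2%) and CCT5 with 65 of 297 (21.9%), and CCT2 had the highest with 100 of 180 (55.6%). This share also depends on coverage, with medians of 23.5 reads in CCT6A, 73 in CCT3, 30 in CCT5 and 20 in CCT2. The rate of CCT6A was 16.4% in the 5′ UTR, 8.69% in the coding sequence and 11% in the 3′ UTR. At the 161 sites of CCT6A kept in both lines and called in neither, the rate was still 7.11% in MCF10A versus 2.71% in MDA-MB-468. At the corresponding 249 sites of CCT5 it was 4.13% and 2.15%. In both genes the difference between the libraries was thus also seen outside the called sites.

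At the sites kept in both lines, the rates of the lines differed in opposite directions among the genes, lower in MDA-MB-468 in CCT5 and CCT6A and higher there in CCT3, CCT4 and TCP1. CCT6A had 657 of 7296 counts unconverted in MCF10A (9.0%) versus 579 of 19009 in MDA-MB-468 (3.05%), and CCT5 had 525 of 10934 (4.80%) and 341 of 14413 (2.37%). CCT4 had 116 of 5258 (2.21%) and 81 of 1704 (4.75%), TCP1 84 of 5860 (1.43%) and 57 of 2101 (2.71%), and CCT3 713 of 31048 (2.30%) and 686 of 24079 (2.85%). In these 5 genes the Wilson intervals of the lines do not overlap, but they are too narrow because the cytosines of a read are not independent. In TCP1 the direction also differed by region over all kept sites. The rates in MCF10A and MDA-MB-468 were 1.23% and 3.12% in the 5′ UTR but 3.01% and 1.09% in the coding sequence. The 5′ UTR held 52 of the 57 unconverted counts of TCP1 in MDA-MB-468. In CCT3 the gap was smaller outside the called sites. At its 284 shared sites called in neither line the rates were 2.14% (1.98% to 2.31%) and 2.47% (2.28% to 2.68%). These had the same direction, and their intervals overlap. In CCT7 the rates were 1.55% in each line, and in CCT2 (1.41% and 2.20%) and CCT8 (3.33% and 5.16%) the intervals overlap. CCT5 and CCT6A were the genes with more counts in MDA-MB-468. Over the 8 genes the log2 ratio of the rates (MDA-MB-468 over MCF10A) and the log2 ratio of the counts had a Pearson's r of -0.96 and a Spearman's rho of -0.98, and over 4890 protein-coding genes with at least 20 shared sites these were -0.35 and -0.33. The counts are the denominator of the rate, and all genes share the same pair of libraries, so the correlation is given as a description. The unconverted counts themselves were fewer in MDA-MB-468 in all 8 genes, with log2 ratios of -1.03 to -0.06. Among the 4890 genes the rate was lower in MDA-MB-468 in 69.6%, and among the 8 genes in 3, of which CCT7 had equal rates after rounding.

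**Figure D4:**
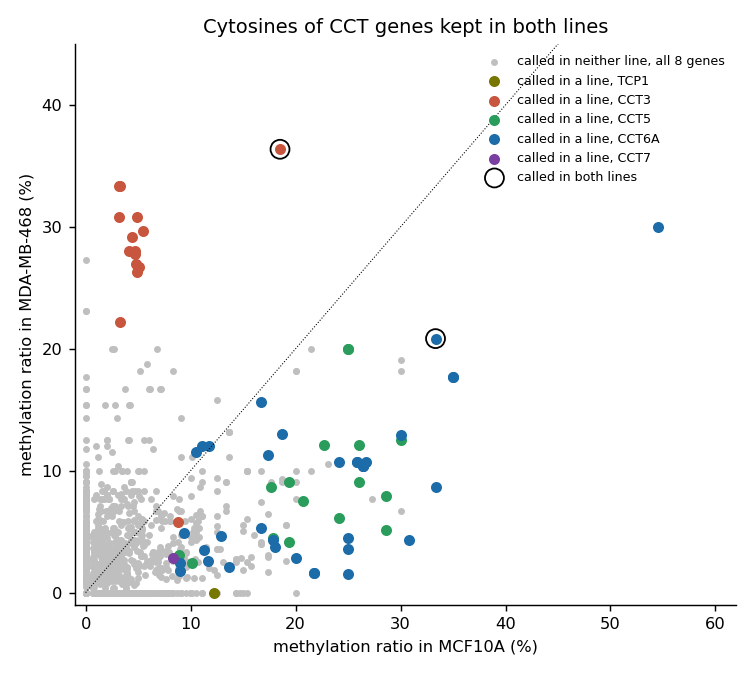
Methylation ratio in percent in MDA-MB-468 (y axis) against MCF10A (x axis) of the 1292 cytosines of CCT genes kept in both lines; grey points were called in neither line, coloured points in at least 1, circled points in both, and the dotted line marks equal ratios. The called cytosines of CCT5 and most of those of CCT6A lie to the lower right, and the 13 of the CCT3 run lie to the upper left. A cytosine called in only 1 line was chosen for its unconverted reads there, so its side of the dotted line follows in part from the calling.

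Site by site, the ratios of the 1292 shared cytosines had a Pearson's r of 0.33 and a Spearman's rho of 0.24 between the lines, a description over sites that share reads. Of these sites 1 differed in the two-sided Fisher's exact test after adjustment over all 812729 sites kept in both lines, the CCT3 site named above, which was higher in MDA-MB-468. Over all sites 0.0893% differed, 0.0202% higher and 0.0691% lower in MDA-MB-468. Before adjustment 73 of the 1292 had a p under 0.05 (5.65%, against 1.14% of all sites), 31 higher and 42 lower in MDA-MB-468. They were 31 lower in CCT6A, 9 lower in CCT5, 24 higher and 2 lower in CCT3, 4 higher in CCT4 and 3 higher in TCP1, with none in CCT2, CCT7 or CCT8. Where only sites called in at least 1 line were tested, 15 of the 69 sites of the 8 genes differed, 11 higher in CCT3 and 4 lower in CCT6A. This was 21.7% of them, where 15% of all 12052 such sites differed, 5.18% higher and 9.82% lower in MDA-MB-468. Such sites were chosen by high unconverted reads in a library that the test then compares. A difference and its direction were therefore favoured by the choice. After the deeper line was thinned at each site to the coverage of the other, none of the 1292 sites differed in the test over all sites.

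Depth set the size of ratio that could be called. At a coverage of 12, the median of CCT8 in MDA-MB-468, at least 4 unconverted reads were needed, a ratio of 33.3%. At a coverage of 20, 5 reads (25%) were needed in MCF10A but 4 (20%) in MDA-MB-468, whereas at 100 reads both lines needed 9 (9%). The kept sites of CCT2 had a median coverage of 20 in MCF10A versus 14 in MDA-MB-468, those of CCT8 20 and 12, and those of CCT4 31 and 17. At the medians of CCT4, the fewest were 5 unconverted reads (16.1%) for MCF10A versus 4 (23.5%) for MDA-MB-468. The limits at these medians do not hold for the deeper sites of CCT2, CCT4 and CCT8, whose highest coverages in MCF10A were 77, 86 and 43, and at 50 reads a ratio of 12% could be called. CCT7 is the contrast, with medians of 57.5 and 37 reads, 376 and 276 kept sites and 1 call. Of the 320 sites of the 8 genes with a coverage of at least 50 in both lines, the highest ratio was 18.0% in MCF10A versus 9.68% in MDA-MB-468, and 10 and 0 were called.

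The share of exonic cytosines that was kept differed among the genes. In MCF10A it was 79.8% in CCT7 and 77.1% in CCT3 but 25.7% in CCT8, and in MDA-MB-468 61.1% in CCT3 and 5.19% in CCT8. Coverage per exonic cytosine, a measure per length in reads, was 67.3 in CCT3, 57.2 in CCT7, 19.5 in CCT4, 16.6 in CCT6A, 16.3 in TCP1, 13.8 in CCT5, 10.1 in CCT2 and 6.50 in CCT8 in MCF10A. In MDA-MB-468 it was 49.8 in CCT3, 41.6 in CCT6A, 26 in CCT7, 19.1 in CCT5, 4.97 in TCP1, 4.12 in CCT4, 2.82 in CCT2 and 1.5 in CCT8. Cytosines under the lowest deposited coverage of 5 count as 0, which understates the low genes.

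Relative to the nuclear exonic counts of each library, coverage was 3.5 times as high in MDA-MB-468 for CCT6A and 1.92 times for CCT5 (log2 ratios of 1.81 and 0.94). It was near equal for CCT3 (0.04), and lower for CCT7 (-0.66), TCP1 (-1.24), CCT2 (-1.36), CCT8 (-1.63) and CCT4 (-1.77). Over 7633 protein-coding genes the median log2 ratio was -0.17 with quartiles of -1.31 and 0.89, so CCT6A, CCT5, CCT8, CCT2 and CCT4 lay outside the quartiles. With 1 library per line these differences have no test, and more RNA per cell and a different share of cells cannot be told apart. CCT6A lies at chr7:56119378-56131682, 840057 nt from EGFR, which is known to be amplified in MDA-MB-468. All 10 other protein-coding genes with data within 1500000 nt of CCT6A had a higher relative coverage in MDA-MB-468, with log2 ratios of 1.34 to 6.05, the direct neighbours PSPH and SUMF2 at 2.02 and 2.15 and EGFR at 3.66. The number of such genes above the median of all genes was 2 of 2 around CCT5, 34 of 53 around CCT3, 8 of 22 around CCT7 and 2 of 9 around TCP1. It was 0 of 5 around CCT4, 0 of 3 around CCT2 and 0 of 2 around CCT8. These windows were chosen after the values of CCT6A were seen, and the part of gene copy number in coverage was not tested.

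**Figure D5:**
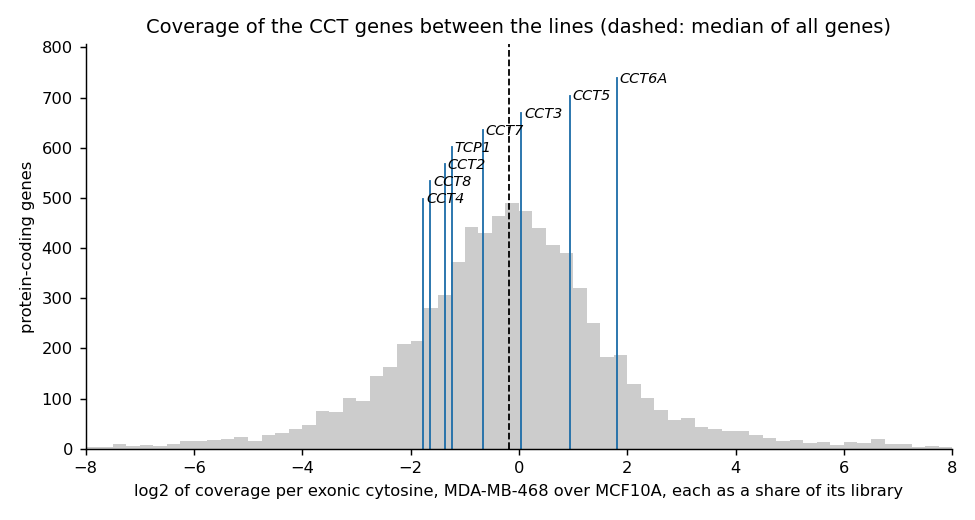
Number of protein-coding genes (y axis) by the log2 ratio of coverage per exonic cytosine in MDA-MB-468 over MCF10A, each relative to the nuclear exonic counts of its library (x axis); lines mark the CCT genes and the dashed line the median of all 7633 genes at -0.17. CCT6A at 1.81 and CCT5 at 0.94 lie to the right and the other genes, apart from CCT3 at 0.04, to the left of the median.

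The partners and relatives of CCT were described in the same way. Of the 9 prefoldin and cochaperone genes, 8 had kept sites in MCF10A versus 5 in MDA-MB-468. Of their 527 kept sites in MCF10A 11 were called, 8 in PFDN6, 2 in PFDN5 and 1 in PFDN1, all prefoldin subunits, and none of the 313 in MDA-MB-468. Among 13 clients, 54 of 3666 kept sites (1.47%) were called in MCF10A in 6 genes and 44 of 2709 (1.62%) in MDA-MB-468 in 5 genes. ACTB, which encodes beta-actin, had 25 and 4 of them, TUBB4B 14 and 12, and TUBB 9 and 18, both encoding beta-tubulins. The pooled nonconversion rate of the clients was 1.83% and 1.81%, below that of the CCT genes in each line. HSPD1 and HSPE1, which encode the mitochondrial chaperonin and its cochaperonin, had no called site among 189 and 87 kept sites and rates of 1.33% and 0.753%. At the shares over all kept sites, the lack of calls among so few sites says little. The chaperonin-like genes CCT6B and BBS12 had no kept site in either line, and MKKS and BBS10 had no called site.

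The proteasome, another complex with rings and many subunits, served as a comparison. Its list was drawn by gene name (PSMA, PSMB, PSMC or PSMD and a number) and was not limited to ring subunits. These 39 genes had 12 called sites among 4932 in MCF10A (0.243%, in 6 genes) versus 10 among 3915 in MDA-MB-468 (0.255%, in 4 genes). Their pooled nonconversion rates were 2.27% and 1.85%. The shares of called sites in the CCT genes were 2.81% and 1.78%, and over all kept sites they were 0.96% and 0.84%. The proteasome list thus lay below all kept sites in each line, and the CCT list above. Without CCT6A the pooled rate of the CCT genes was 2.47% in each line. With their near-copy sites left out it was 2.15% for MCF10A, below the proteasome, versus 2.57% for MDA-MB-468. The median rate of genes with at least 20 kept sites was lower for CCT than for the proteasome in MCF10A (2.41% versus 2.66%). For MDA-MB-468 it was higher (2.77% versus 1.83%). The order of the lists in MCF10A thus depends on the measure. No test between the lists was made, because the calls of the CCT genes lie in a few runs whose cytosines share reads.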

How the data were processed

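RNA BS-Seq was analysed for MCF10A and MDA-MB-468, with 1 library each and no replicates. The authors treated poly(A)-selected RNA with bisulfite, aligned the reads to hg19 (the labels name Trim Galore and Bismark, the methods MeRanTK) and deposited counts of unconverted and converted reads per cytosine, without normalization, from a coverage of 5. The files held 76098976 counts at 3146911 sites in MCF10A and 90960018 counts at 3489803 sites in MDA-MB-468. All 2461 positions of the 8 genes fell on a cytosine of their strand in GRCh37.

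Exons were those of basic transcripts of GENCODE release 44 mapped to GRCh37, and positions refer to the transcript with the longest coding sequence. Kept sites had a coverage of at least 10 and lay on same-strand exons or the mitochondrial chromosome. Fisher's exact test, one-sided, compared each with the summed counts of its line, and a two-sided one compared sites kept in both lines, each with Benjamini-Hochberg adjustment at 0.05. QNB, which the methods name for differential sites, was not installed. The structure filter of the methods was not applied. Pairing probabilities (ViennaRNA 2.7.2, window 300 nt, distance 150 nt, 70 degrees, highest over transcripts) served as an alternative. Copies were sought with blastn 2.17.0. Python 3.11.15, scipy 1.17.1 and pandas 2.3.3 were used, and the calling was tested on simulated data. Sites named are those called in both lines, those that differed, and per gene and line the called site of highest ratio at a coverage of at least 20, and in MDA-MB-468, with 25 calls, any called site. The genes and lists were chosen with earlier results of these data known. Intervals are 95% Wilson intervals and cover counting error only. PCR reads without molecular identifiers are not independent molecules. The alternatives covered background, test, coverage, structure, ratio, clustering and near copies.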

Additional observations from a re-analysis of the deposited data

How the results depend on the processing

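Calling against nuclear sites only, a binomial test, a coverage minimum of 20 or of 5, and leaving out sites shared with other genes (there were none) kept the numbers of called sites and of genes with one within 1.5 times. Leaving out sites with a pairing probability over 0.5 gave 26 called sites in 3 genes in MCF10A and 15 sites in MDA-MB-468. A methylation ratio of at least 0.2 gave 34 sites in 3 genes in MCF10A. Without sites within 10 nt of another m5C site 16 and 5 sites remained, and without sites with a near copy, an alternative chosen after seeing the data, 4 sites in 2 genes and 16 sites. The nonconversion rate moved beyond its interval in MCF10A and MDA-MB-468, respectively, to 2.72% and 2.45% with a minimum of 20, 3.09% and 2.79% with a minimum of 5, 3.21% and 2.90% without paired sites, 4.30% and 3.85% as the mean of site ratios, and 2.68% and 2.49% without m5C sites. Leaving out CCT6A gave 2.47% in each line, and leaving out near copies 2.15% in MCF10A, both chosen after seeing the data. The number of differential sites was 1, and it was 15 over called sites only, 2 at a coverage of 20, 0 after thinning and 0 without paired sites. Testing called sites alone adjusts over fewer sites, which were chosen by the same reads that are compared, and thinning leaves fewer reads. The cause of the other changes was not tested. No paired analysis was possible because each line is 1 library. With 1 library per line, no value covers variation between cultures, and depth limits which ratios could be called.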
